A study of Mus musculus with 10 samples.

Results

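Long noncoding RNAs are transcripts that act as RNA or serve as precursors of smaller RNAs. The 8 examined here were chosen by name, and all 8 had a row among the 39488 rows of the count table. Neat1 and Malat1 are nuclear RNAs. Mir155hg and Mir22hg are the hosts of miR-155 and miR-22. Gas5, Snhg1 and Snhg12 are hosts of small nucleolar RNAs (snoRNAs), and Meg3 is an imprinted RNA. Peritoneal macrophages of C57BL/6 mice, 8 weeks old, were collected on day 3 after thioglycollate, which elicits macrophages into the peritoneal cavity, and gave 5 control and 5 ox-LDL libraries of total RNA. The control cells are labelled untreated, whereas the ox-LDL cells were primed with LPS at 100 ng/ml and then received oxidized low-density lipoprotein at 100 µg/ml over 16 h, so LPS and ox-LDL cannot be told apart. The study's text also names both groups together after LPS priming, so the controls may have been primed too, and the labels were followed. Whether the mice were pooled is not given in the sources used here, nor is whether the libraries were made from polyadenylated RNA.

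In the nucleus, Neat1 builds the paraspeckle, a body of RNA-binding proteins, and Malat1 collects in nuclear speckles with splicing factors. A miRNA host is cut by Drosha and Dicer into a mature miRNA, which lowers target mRNAs through its seed. In macrophages, Mir155hg is a textbook target of Toll-like receptor signaling, and miR-155 is known as an amplifier of inflammation. snoRNA hosts are spliced to release snoRNAs from their introns, and the spliced RNA that remains is short and is degraded during translation. Gas5 and Snhg1 belong to the genes whose transcripts start with a run of pyrimidines, the class that also holds the ribosomal proteins.

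The mature miRNAs carried by the 2 miRNA hosts are shown because the count table measures only the hosts. It held no row for Mir155 or Mir22 themselves. In the sequences (RefSeq, GRCm38.p6), capitals mark the seed, bases 2 to 8.
mmu-miR-155-5p: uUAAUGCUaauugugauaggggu
mmu-miR-155-3p: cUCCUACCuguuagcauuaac
mmu-miR-22-5p: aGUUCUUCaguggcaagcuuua
mmu-miR-22-3p: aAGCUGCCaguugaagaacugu
The miR-155 arms lie at chr16:84714143-84714165 and chr16:84714182-84714202, and the miR-22 arms at chr11:75463734-75463755 and chr11:75463772-75463793, all on the plus strand. None of these 4 seeds was shared with another of the 1738 mature miRNAs in the RefSeq table.

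Total counts were between 20094647 and 20687289 per control library and between 19257131 and 20358017 per ox-LDL library. Levels are given as CPM, counts scaled to a common library size by TMM normalization, which had a factor of 0.593 in ox-LDL replicate 2 and of 0.837 to 1.19 in the other 9 libraries. In ox-LDL replicate 2, short genes stood apart. Its 967 genes with a transcript length under 800 bases were 1.52 above the group mean (median, log2 scale), and its 6267 genes over 2500 bases were 0.42 below it. All 8 macrophage markers were detected, with Lyz2 at 17493 CPM or more in the controls and 8713 CPM or more after ox-LDL. Their summed level was 19667 to 47500 CPM in the controls and 11941 to 48240 CPM after ox-LDL, with overlap. Of the 8, 1 was higher without overlap (Adgre1, 181 to 318 and 689 to 1647 CPM) and 0 were lower without overlap. Of 12654 genes tested with edgeR's quasi-likelihood test, 14.7% were called at a Benjamini-Hochberg adjusted p below 0.01, 9.4% higher and 5.35% lower after ox-LDL.

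Of the 7 long noncoding RNAs with enough counts to be tested, Mir155hg alone passed this threshold (1 of 7, beside 14.7% of all genes). All 7 fold changes were above 0, as were 56.2% of all genes tested. At an adjusted p below 0.05, 3 of the 7 were called higher (Mir155hg, Neat1 and Malat1), beside 16.2% of all genes. Meg3 had too few counts for the test. Across the scalings, the median log2 fold change of all genes was 0.10 with TMM, -0.05 with upper-quartile factors and -0.09 with library size alone, and all 7 members stayed above these medians.

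**Figure D1:**
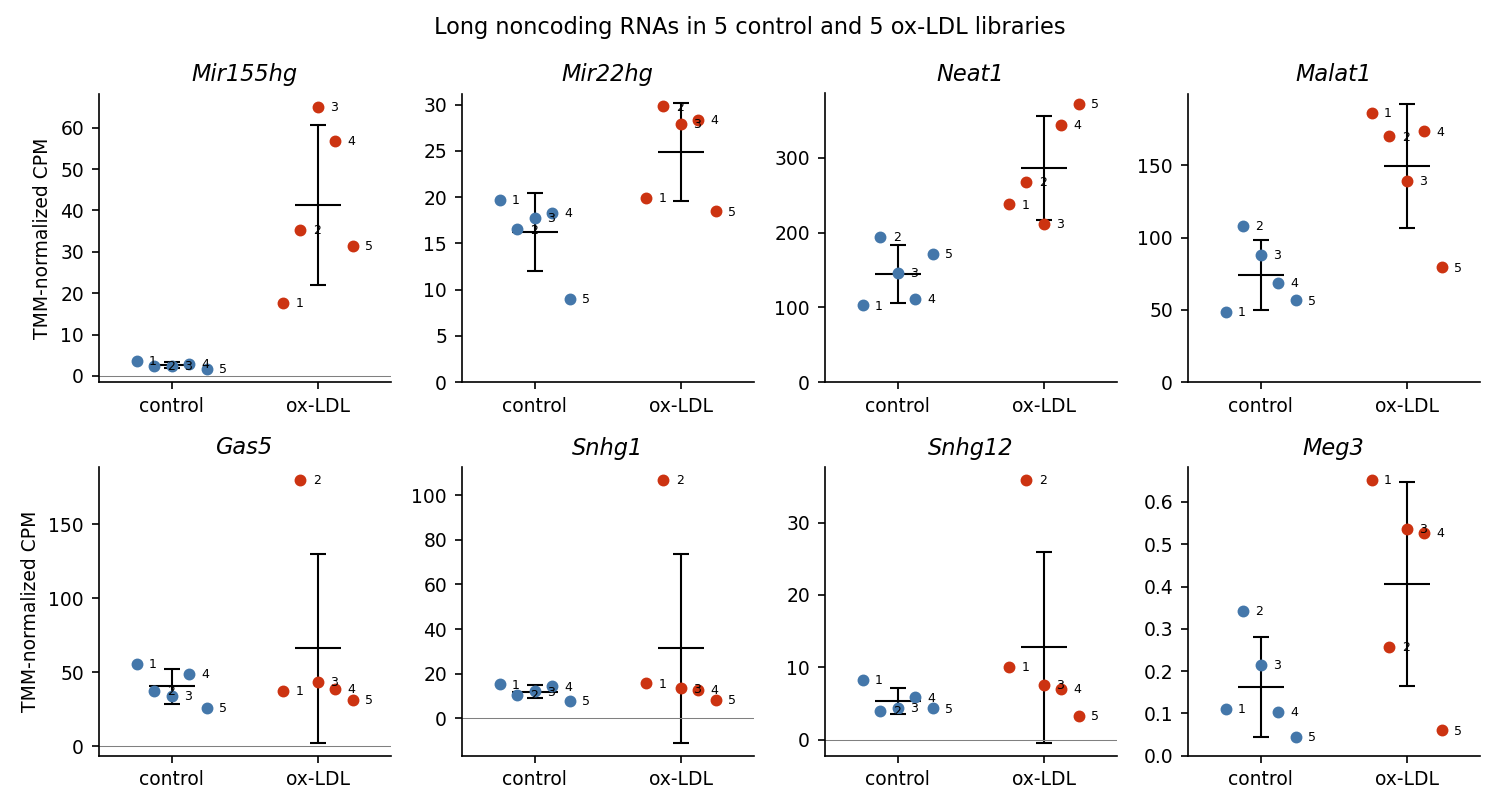
TMM-normalized CPM (vertical axis, linear, one scale per gene) of each long noncoding RNA in 5 control (blue) and 5 ox-LDL (red) libraries, with the replicate number beside each point and the mean ± SD in black. The Mir155hg and Neat1 groups do not overlap, and ox-LDL replicate 2 lies far above all other libraries for Gas5, Snhg1 and Snhg12.

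Mir155hg, the host of miR-155, rose in every ox-LDL library. Control replicates 1 to 5 had 3.60, 2.48, 2.31, 2.99 and 1.65 CPM. The ox-LDL replicates 1 to 5 had 17.6, 35.4, 65.1, 56.9 and 31.4 CPM. The groups did not overlap, as for 11.6% of all genes tested in this direction, and the libraries of either group differed among themselves, from 1.65 to 3.60 CPM in the controls and from 17.6 to 65.1 CPM after ox-LDL. The means were 2.61 ± 0.731 and 41.3 ± 19.4 CPM (SD, n = 5 each). The log2 fold change was 3.99 (SE 0.37, edgeR adjusted p = 2.9e-05), a 15.9-fold difference. An exact two-sided permutation test of CPM gave p = 0.00794, the smallest that 5 against 5 libraries allow. In bulk RNA, more cells of a type and more RNA per cell cannot be told apart. The summed levels of markers of some other cell types also differed between the groups. The summed level of 6 dendritic cell markers, all detected, was 1.37 to 2.83 CPM in the controls and 3.83 to 17.1 CPM after ox-LDL. Ccr7 made up most of it (0 to 0.565 and 1.96 to 13.8 CPM). Of the 6, Ccr7 and Clec9a were higher without overlap, and Cd209a was lower without overlap (0.130 to 1.96 and 0 to 0.0856 CPM). For 10 mesothelial and stromal markers, all detected, it was 14.1 to 48.9 and 102 to 156 CPM, and for 7 neutrophil markers, with Mpo at 3 counts or fewer, it was 42.8 to 100 and 57.4 to 231 CPM, with overlap. Of 5 T cell markers, 3 were above that count, and the sum was 0.498 to 0.773 and 0.927 to 2.57 CPM. None of the 5 differed without overlap, and Lck, the highest of them, had 0.434 to 0.773 and 0.597 to 1.88 CPM. The sum of 7 eosinophil and mast cell markers, of which 5 were above 3 counts, was lower, at 2.61 to 8.68 and 0.683 to 3.05 CPM. That of 5 B cell markers reached at most 2.96 CPM. Their part in the level of Mir155hg or of the other RNAs was not tested.

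The deposited FPKM values, which divide by transcript length, gave a larger difference for Mir155hg. They were 0.31 to 0.53 in the controls and 9.42 to 37.2 after ox-LDL, and the ratio of the means was 45.9. The counts and the FPKM values come from the same libraries, so together with the library total they give the transcript length behind each FPKM value. For Mir155hg this implied length was 6047 to 6171 bases in the 5 controls. After ox-LDL it was 1836 to 2182 bases in the 5 libraries. The ratio of the means was 0.323 with no overlap (exact permutation p = 0.00794), the second lowest of 10603 genes with at least 10 counts in every library. In the same direction, 1.73% of these genes had groups that did not overlap. Counted over both directions, 7 genes (0.066%) combined no overlap with means that were at least 2-fold apart. In mm9, the locus (chr16:84713268-84715487, plus strand, annotated as a lincRNA under the name Mir155) spans 2220 bases and has 1 transcript of 1261 bases in 2 exons. The control value is thus longer than the annotated locus, and the gene models behind the FPKM values are not given in the sources used here. Which transcripts the reads came from was not tested. The estimated counts of Mir155hg had fractions in all 10 libraries, so some of its reads were shared with other rows. No single partner row was found, and its level is uncertain to that extent.

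**Figure D2:**
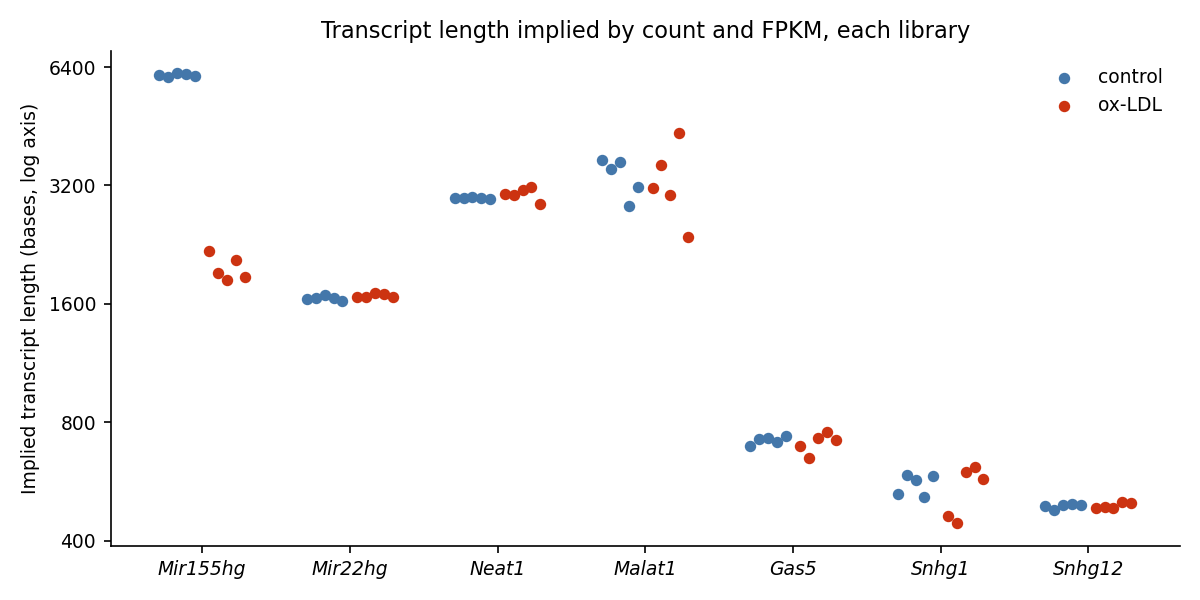
Transcript length implied by the deposited count and FPKM value (bases, log axis) for the 7 tested long noncoding RNAs, with 1 point per library (control blue, ox-LDL red, replicates 1 to 5 from left to right). Mir155hg sits at 6047 to 6171 bases in the controls and at 1836 to 2182 bases after ox-LDL, whereas the groups overlap for the other 6 genes.

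The region around the annotated start of Mir155hg is shown because this gene carried the called difference. It is the RefSeq promoter window, 250 bases before to 50 after the start, at chr16:84712773-84713072 (GRCm38.p6, plus strand).
Mir155hg promoter: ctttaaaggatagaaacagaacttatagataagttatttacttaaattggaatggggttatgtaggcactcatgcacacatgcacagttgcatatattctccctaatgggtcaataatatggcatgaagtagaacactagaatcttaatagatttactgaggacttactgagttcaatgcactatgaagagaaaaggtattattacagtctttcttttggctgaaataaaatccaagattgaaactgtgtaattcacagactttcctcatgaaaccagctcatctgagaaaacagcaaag
Both strands were searched for motifs of known factors, and no match was found in these letters. Among all 32851 RefSeq promoter windows of this length, 7.81% held the AP-1 motif (TGANTCA) and 1.79% the CRE motif (TGACGTCA). The E-box (CACGTG) stood in 7.15%, and the letters TATAAA of the promoter box of that name in 13.6%. The ISRE stood in 3.44% and the NF-kB motif in 8.46%.

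Among 12 genes known as miR-155 targets, 11 were tested, of which 3 were called higher and 1 lower (beside 9.4% and 5.35% of all genes). With 10 or more counts required in every library, 9 of them were tested, of which 1 was called higher and 1 lower. The median log2 fold change of the 11 was 0.02, beside 0.10 for all genes tested, and that of the 9 was -0.23. Maf, a macrophage transcription factor, fell by 1.64 on the log2 scale (SE 0.30, adjusted p = 0.0019), from 28.0 ± 6.61 to 9.01 ± 3.97 CPM (SD, n = 5 each). Socs1, an inhibitor of cytokine signaling, rose from 0.628 ± 0.493 to 22.2 ± 24.3 CPM (log2 fold change 5.12). Arg2, an arginase, rose from 0.931 ± 0.746 to 15.5 ± 8.53 CPM. Cebpb, a transcription factor of inflammatory genes, rose from 57.7 ± 11.7 to 264 ± 102 CPM. The targets that were called thus moved in both directions. Socs1 and Arg2 were low in the controls (0.214 to 1.48 and 0.428 to 2.22 CPM), so a fall of either could hardly have been called. Bach1, a heme-sensing repressor, did not pass the threshold (log2 fold change -0.82, adjusted p = 0.042). Of 12 genes that make or load miRNAs, such as Drosha, Dicer1 and Ago2, edgeR called 0 in either direction (beside 14.7% of all genes). At an unadjusted p below 0.05, 2 were higher and 1 lower. DESeq2 called 1 higher and 1 lower, and limma called 0 higher and 1 lower both with voom and on log2(FPKM + 1). For counts at an unadjusted p or with these other tools, here and in the lists below, no share of all genes is given. They are therefore counts without a background.

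Mir22hg, the host of miR-22, did not pass the threshold. The controls had 19.7, 16.5, 17.8, 18.3 and 9.04 CPM. The ox-LDL libraries had 19.9, 29.8, 27.9, 28.3 and 18.5 CPM. The groups overlapped only through ox-LDL replicate 5, which was below control replicate 1, and control replicate 5 was the lowest library of all. The means were 16.3 ± 4.20 and 24.9 ± 5.27 CPM (SD, n = 5 each), with a log2 fold change of 0.61 (SE 0.23, edgeR adjusted p = 0.073). Its implied length was nearly constant, at 1630 to 1705 bases over the 10 libraries, beside an annotated transcript of 1752 bases. In mm9 it lies at chr11:75275041-75280178 on the plus strand, and the miRNA gene lies inside it. Of 6 other miRNA hosts tested, Lncpint, a p53-responsive RNA, rose from 1.79 ± 0.398 to 6.09 ± 3.33 CPM (log2 fold change 1.77, adjusted p = 0.0049). Dleu2, the host of miR-15a and miR-16-1, fell by 1.26 on the log2 scale, from 28.1 ± 8.84 to 11.7 ± 4.08 CPM (adjusted p = 0.0060). The call of Lncpint was lost without any single control library and without ox-LDL replicate 3 or 4 (adjusted p up to 0.0155), and with library size alone (0.026). That of Dleu2 was lost without control replicate 1 or 4 or ox-LDL replicate 3, 4 or 5 (adjusted p up to 0.0217), and with the replicate block (0.0136). The other 4 were not called, and the median of the 6 was 0.03. Of all genes, 9.4% were called higher and 5.35% lower.

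Neat1, the architectural RNA of paraspeckles, was about 2-fold more abundant after ox-LDL but missed the threshold. Its controls had 103, 194, 146, 111 and 171 CPM. Its ox-LDL libraries had 238, 267, 211, 344 and 372 CPM. The groups did not overlap, and ox-LDL replicate 3 was the lowest of its group. The means were 145 ± 38.6 and 287 ± 69.2 CPM (SD, n = 5 each), with a log2 fold change of 0.98 (SE 0.25, edgeR adjusted p = 0.0116) and an exact permutation p of 0.00794. Over 25 alternatives the adjusted p was between 0.00077 and 0.091 and fell below 0.01 in 6 of them, while the log2 fold change stayed between 0.75 and 1.10. When ox-LDL replicate 2 was left out, the log2 fold change of Neat1 was 0.97 (adjusted p = 0.0069). On the FPKM scale the groups overlapped (30.9 to 73.5 and 51.5 to 118) and the exact permutation p was 0.0556.

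Neat1 spans 20771 bases in mm9 (chr19:5824708-5845478, minus strand), and its annotated transcripts include 1 of the full span and 1 of 3004 bases. The implied length was 2958 to 2990 bases in the controls and 2874 to 3166 bases after ox-LDL, near the short transcript in every library. The deposited tables give 1 row for the gene and do not separate the long transcript, which holds the paraspeckle together, from the short one.

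Malat1, its neighbour on chromosome 19 (chr19:5795690-5802671, minus strand), also missed the threshold. The controls had 48.5, 108, 87.8, 68.5 and 56.5 CPM. The ox-LDL libraries had 186, 170, 139, 173 and 79.4 CPM. Only ox-LDL replicate 5 fell into the range of the controls. The means were 73.9 ± 24.2 and 150 ± 42.9 CPM (SD, n = 5 each), with a log2 fold change of 1.02 (SE 0.28, edgeR adjusted p = 0.020) and an exact permutation p of 0.0238. Over 25 alternatives the adjusted p of Malat1 was between 0.0031 and 0.117. It was 0.0065 without ox-LDL replicate 5, 0.054 without control replicate 1, 0.052 without control replicate 4 and 0.117 with library size alone, so the call at 0.05 was lost in the last 3 of these. The ratio of Neat1 to Malat1 on the FPKM scale was 1.55 to 3.24 in the controls and 1.32 to 3.86 after ox-LDL, and no difference was detected (exact permutation p = 0.746 on log2 ratios).

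The rows of Neat1 and Malat1 shared reads. Estimated counts of both had fractions in 5 libraries, and in all 5 the fractions added to a whole number within 0.01, although the genes are 22037 bases apart. How the counting split such reads is not stated, so the share of each gene is uncertain. With both rows summed, an alternative chosen after seeing the data, the log2 fold change was 1.00 (adjusted p = 0.0072).

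Among 15 paraspeckle proteins, such as Sfpq, Nono and Pspc1, edgeR called 0 in either direction (beside 14.7% of all genes). At an unadjusted p below 0.05, 3 were higher and 1 lower. DESeq2 called 1 higher and 0 lower, and limma called 0, with voom and on log2(FPKM + 1). Their median log2 fold change was 0.16, beside 0.10 for all genes. Among 12 nuclear speckle proteins, edgeR called 1 lower and 0 higher (beside 5.35% and 9.4% of all genes). At an unadjusted p below 0.05, 3 were higher and 4 lower. DESeq2 called 0 higher and 2 lower, limma-voom 0 and 1, and limma on log2(FPKM + 1) 0 and 2. The one that fell was Srsf2, a splicing factor that collects in speckles, by 0.93 on the log2 scale (SE 0.18, adjusted p = 0.0023), from 96.1 ± 15.7 to 50.3 ± 7.51 CPM (SD, n = 5 each). Its adjusted p was 0.0116 with the replicate block.

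Gas5, Snhg1 and Snhg12, hosts that carry 9, 8 and 4 annotated snoRNA genes in mm9, were set apart by a single library. Gas5 had 55.8, 37.6, 34.3, 48.8 and 26.0 CPM in the controls. It had 37.6, 180, 43.8, 38.6 and 31.5 CPM after ox-LDL, where replicate 2 was the only library outside the range of the controls. Snhg1 had 15.2, 10.5, 12.1, 14.3 and 7.99 CPM in the controls. It had 15.7, 107, 13.5, 12.9 and 8.18 CPM after ox-LDL, again with replicate 2 far above the rest. Snhg12 had 8.30, 3.94, 4.32, 5.82 and 4.30 CPM in the controls. It had 10.0, 35.9, 7.56, 7.03 and 3.23 CPM after ox-LDL, with the same library at the top, replicate 1 also above every control and replicate 5 below every control.

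None of the 3 hosts passed the threshold. The log2 fold change was 0.71 for Gas5 (SE 0.47, edgeR adjusted p = 0.293). For Snhg1 it was 1.38 (SE 0.64, adjusted p = 0.132). For Snhg12 it was 1.25 (SE 0.54, adjusted p = 0.110). Without ox-LDL replicate 2 these values became -0.14, 0.02 and 0.35 (adjusted p = 0.621, 0.952 and 0.411).

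The same library was the one with high short genes, and the hosts are short by their implied lengths. These were 650 to 756 bases for Gas5, 443 to 615 for Snhg1 and 479 to 502 for Snhg12. The annotated Snhg1 transcripts in mm9 are longer, at 2339 and 2719 bases, so its place among short genes rests on the implied length alone. In ox-LDL replicate 2 they deviated from the group mean by 1.78, 2.42 and 1.83 on the log2 scale, beside 1.52 for the median gene under 800 bases. In control replicates 1 and 4, where short genes were 0.40 and 0.29 above the group mean, the 3 hosts were also above it, by 0.15 to 0.60. Other libraries followed the short genes less closely. In ox-LDL replicate 1, short genes were at -0.42 and Snhg12 at 0.095, in control replicate 3 they were at -0.24 and Snhg1 at 0.040, and in ox-LDL replicate 5 they were at -0.26 and the 3 hosts at -0.70 to -1.29. After the dependence of CPM on gene length had been taken off in each library, the log2 fold changes were 0.58 for Gas5 (adjusted p = 0.0162), 0.98 for Snhg1 (adjusted p = 0.0113) and 1.14 for Snhg12 (adjusted p = 0.0050), and Snhg12 passed the threshold (beside 13.0% of all genes called higher in this way). On that scale, ox-LDL replicates 1 to 4 were above every control for Gas5 (5.69 or more beside at most 5.37, log2). The same held for Snhg1 (4.35 or more beside at most 3.87) and for Snhg12 (3.48 or more beside at most 2.63). Replicate 5 lay within the range of the controls for all 3 hosts. Leaving out the library and taking off the trend thus gave different values for the same genes, and the part of gene length in the result of a single gene was not tested.

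**Figure D3:**
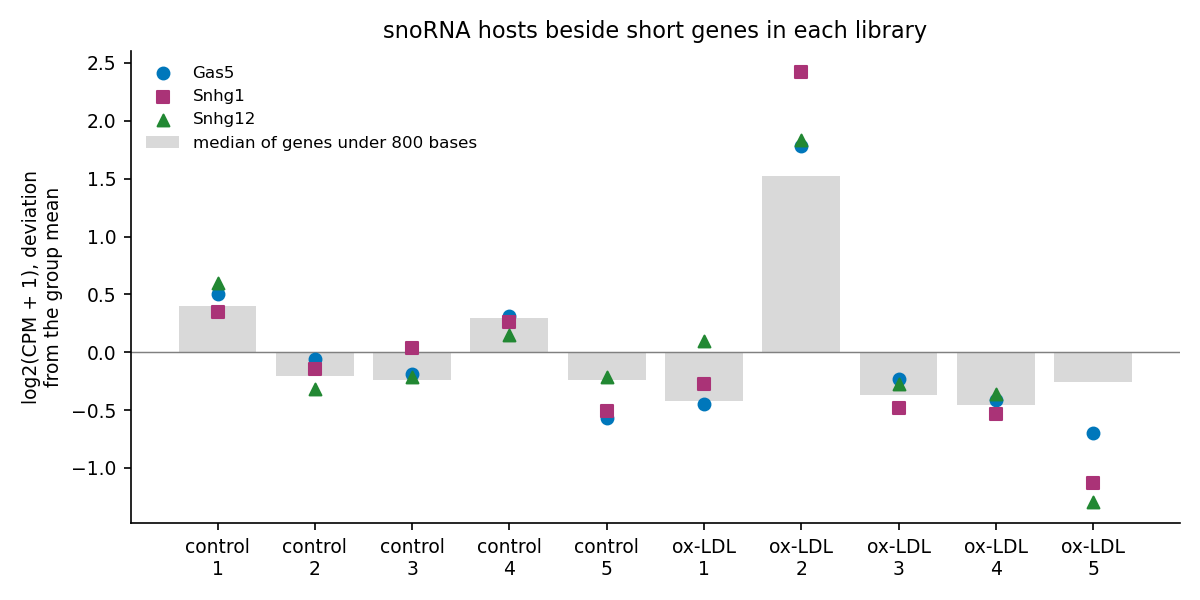
Deviation of log2(CPM + 1) from the group mean (vertical axis) in each of the 10 libraries, for the median of the 967 genes under 800 bases (bars) and for Gas5, Snhg1 and Snhg12 (points). In ox-LDL replicate 2 the bar stands at 1.52 and the hosts at 1.78 to 2.42, whereas ox-LDL replicate 5 has the hosts lowest.

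Within groups, Gas5 and Snhg1 deviated together (Pearson r = 0.97 over the 10 libraries, and 0.83 after the length trend was removed), as did Snhg1 and Snhg12 (r = 0.95 and 0.61) and Gas5 and Snhg12 (r = 0.92 and 0.41). After the trend was removed, Malat1 also deviated with Snhg1 (r = 0.89, beside 0.31 before) and with Gas5 (r = 0.77, beside 0.19), so high values were not particular to pairs of hosts. These are descriptions, since the values of a library share its depth and its length trend. On the FPKM scale the ratio of Gas5 to Snhg1 was 2.21 to 2.90 in the controls and 1.15 to 3.08 after ox-LDL (exact permutation p = 0.341 on log2 ratios).

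The starts of the 3 hosts are shown because Gas5 and Snhg1 are known for a pyrimidine-rich start. Each is the RefSeq window of 250 bases before to 50 after the start (GRCm38.p6, plus strand), and capitals mark the longest run of C and T within 25 bases of the start. They lie at chr1:161034916-161035215 for the second of the 2 Gas5 starts, at chr19:8723237-8723536 for Snhg1 and at chr4:132308428-132308727 for Snhg12.
Gas5 promoter: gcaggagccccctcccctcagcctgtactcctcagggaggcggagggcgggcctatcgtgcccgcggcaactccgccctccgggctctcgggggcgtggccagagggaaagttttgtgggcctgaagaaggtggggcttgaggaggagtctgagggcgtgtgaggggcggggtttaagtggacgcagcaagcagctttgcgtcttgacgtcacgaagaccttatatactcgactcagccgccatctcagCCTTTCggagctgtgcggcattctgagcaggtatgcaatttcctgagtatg
Snhg1 promoter: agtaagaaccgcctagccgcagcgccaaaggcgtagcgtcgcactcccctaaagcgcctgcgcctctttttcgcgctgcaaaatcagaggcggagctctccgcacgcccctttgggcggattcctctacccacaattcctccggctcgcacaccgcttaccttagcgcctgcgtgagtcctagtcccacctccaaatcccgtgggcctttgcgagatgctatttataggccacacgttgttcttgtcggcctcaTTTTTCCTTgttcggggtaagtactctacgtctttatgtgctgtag
Snhg12 promoter: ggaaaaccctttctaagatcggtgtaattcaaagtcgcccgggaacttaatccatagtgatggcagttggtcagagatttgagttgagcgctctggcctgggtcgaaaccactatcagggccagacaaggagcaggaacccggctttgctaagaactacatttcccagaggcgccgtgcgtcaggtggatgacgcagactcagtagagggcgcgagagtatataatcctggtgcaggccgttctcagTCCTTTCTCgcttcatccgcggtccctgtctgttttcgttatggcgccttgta
The run had 9 bases in Snhg1 and in Snhg12, and 13.3% of all windows held a run at least as long. It began 5 bases after the annotated start in Snhg1 and 3 bases before it in Snhg12. In Gas5 it had 6 bases, as had 43.9% of all windows, and it began 1 base before the annotated start. The window of the other Gas5 start, not printed, had a run of 3 bases (96.3% of all windows) and no CRE letters, and the printed one was chosen with both known. The printed Gas5 window held the CRE letters 46 bases before the start (1.79% of all windows), and the Snhg1 window held the TATAAA letters on the minus strand 29 bases before it (13.6%). These are matches of letters and were not tested for use.

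Estimated counts of Gas5 and Snhg1 also had fractions, so reads of both were shared with other rows and their levels are uncertain to that extent. For Snhg1 and Slc3a2, an amino acid transporter chain 127 bases away, the fractions added to a whole number in 7 of 8 libraries. Slc3a2 rose by 1.92 on the log2 scale (SE 0.37, adjusted p = 0.0025, and 0.0102 without control replicate 4). The counts were not stated to use strand, and how such reads were split is not given in the sources used here. Snhg12 had whole counts in all 10 libraries.

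Of 14 other snoRNA hosts tested, such as Snhg6, Snhg8 and Zfas1, edgeR called 0 in either direction (beside 14.7% of all genes). At an unadjusted p below 0.05 the count was 0, as it was at an adjusted p below 0.01 with DESeq2 and with both limma tests. Their median log2 fold change was 0.12 and became -0.27 without ox-LDL replicate 2. Of 16 proteins that assemble or modify snoRNAs, edgeR called 1 higher and 0 lower (beside 9.4% and 5.35% of all genes). At an unadjusted p below 0.05, 3 were higher and 1 lower. DESeq2 called 1 higher and 1 lower, limma-voom 1 and 0, and limma on log2(FPKM + 1) 0 and 0. The one that edgeR called was Nufip1, a snoRNP assembly factor, which rose from 15.0 ± 1.20 to 36.4 ± 17.6 CPM (log2 fold change 1.28, adjusted p = 0.0048). Its call was lost without any single one of control replicates 1 to 4 (adjusted p up to 0.0161), with the replicate block (0.0106) and with library size alone (0.0183). Of 9 factors of nonsense-mediated decay, the pathway that degrades spliced snoRNA hosts, edgeR called 2 higher and 0 lower (beside 9.4% and 5.35% of all genes). At an unadjusted p below 0.05, 4 were higher and 1 lower. DESeq2 called 4 higher, limma-voom 2 and limma on log2(FPKM + 1) 0, each with 0 lower. Smg9, a regulator of the Smg1 kinase, rose from 13.9 ± 1.22 to 26.9 ± 7.21 CPM (log2 fold change 0.95). The call of Smg9 was lost without any single one of control replicates 1 to 4 or ox-LDL replicate 4 (adjusted p up to 0.0138), with the replicate block (0.0139) and with library size alone (0.078). In the list, 0 factors were called higher with the replicate block, with library size alone or without any single one of control replicates 1 to 4, and 4 without ox-LDL replicate 2. The 9 factors had a median of 0.60, beside 0.10 for all genes. With a library left out, the median of the list was 0.24 to 0.78. The lowest, without control replicate 1, was over 10 tested factors.

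**Figure D4:**
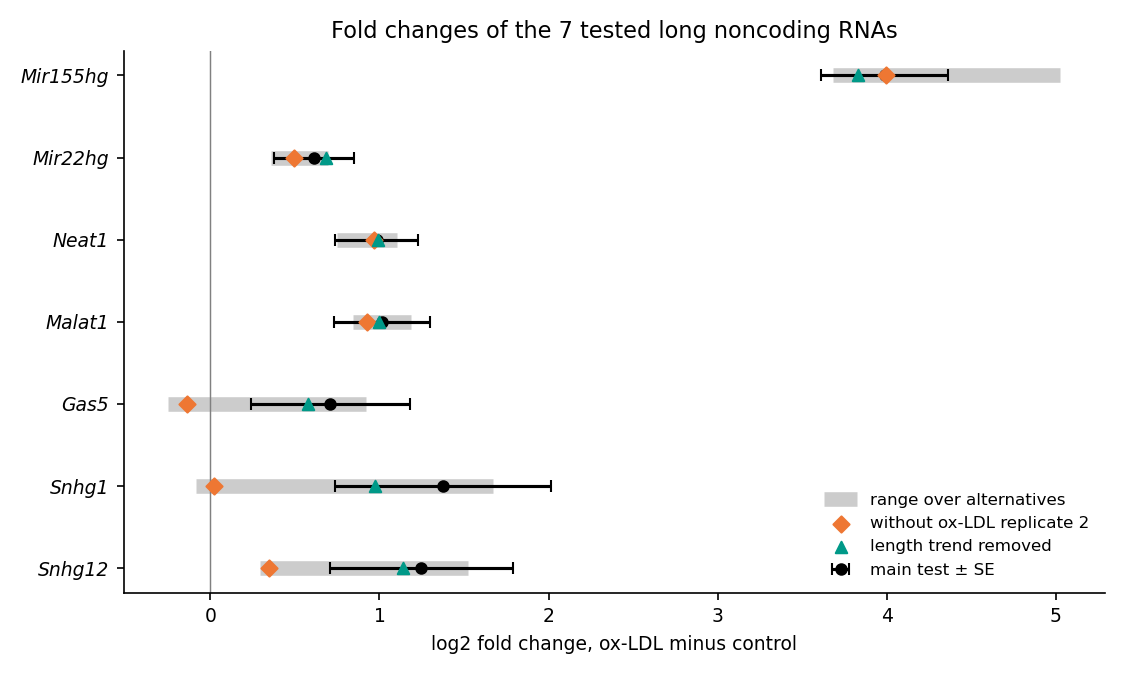
log2 fold change, ox-LDL minus control, of the 7 tested long noncoding RNAs in the edgeR test (black, ± SE), without ox-LDL replicate 2 (orange), with the length trend removed (green) and over all alternatives (grey range). Mir155hg stays above 3.6 throughout, Neat1 and Malat1 stay between 0.7 and 1.2, and the ranges of Gas5 and Snhg1 cross 0.

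Meg3, the imprinted RNA of the Dlk1-Dio3 locus (chr12:110779211-110809936 in mm9, plus strand), was near the detection limit. It had 2.01, 7.71, 4.58, 2.30 and 1.00 counts in the controls. It had 14.75, 2.59, 10.96, 11.47 and 0.52 counts after ox-LDL. The groups overlapped, with ox-LDL replicates 1, 3 and 4 above all controls and replicate 5 at the bottom. The mean CPM was 0.163 ± 0.118 and 0.406 ± 0.242 (SD, n = 5 each, exact permutation p = 0.0952), so a difference was not detectable at this depth. Rian and Mirg of the same locus reached 1.19 and 0.343 CPM at most, and neither was tested. In 6 of 9 libraries its fractions added to a whole number with those of another row, which has no symbol. Stromal cells are known to express Meg3, and their markers were summed above at a higher level in every ox-LDL library. Of the 10, 3 were higher without overlap (Dcn, Col1a1 and Col1a2), with Dcn at 9.33 to 38.3 CPM in the controls and 56.6 to 91.6 CPM after ox-LDL. Upk3b, a mesothelial marker, was lower without overlap (0.257 to 0.940 and 0 to 0.239 CPM), the stromal gene Lum had 0.0428 to 0.214 and 0 to 0.0597 CPM, and Msln stayed at 0.287 CPM or less. Their part in the level of Meg3 was not tested.

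On the FPKM scale, which divides by transcript length, the order in the controls was Gas5 (58.1 ± 12.3), Neat1 (52.4 ± 18.4), Malat1 (23.5 ± 8.60), Snhg1 (22.6 ± 4.73), Snhg12 (11.2 ± 2.38), Mir22hg (10.2 ± 2.29), Mir155hg (0.440 ± 0.0812) and Meg3 (0.0540 ± 0.0385, SD, n = 5 each). The implied lengths of Snhg1 and Mir155hg differed from their annotated transcripts, so the order between genes depends on the lengths used. Neighbours overlapped except Snhg1 with Snhg12, Mir22hg with Mir155hg and Mir155hg with Meg3. After ox-LDL the order was Neat1 (87.6 ± 26.8), Gas5 (75.7 ± 49.2), Snhg1 (47.7 ± 52.9), Malat1 (43.1 ± 17.2), Snhg12 (20.8 ± 14.1), Mir155hg (20.2 ± 12.6), Mir22hg (13.8 ± 3.98) and Meg3 (0.122 ± 0.0936). There all neighbours overlapped except Mir22hg and Meg3. Without ox-LDL replicate 2, Snhg1 had a mean of 24.5 ± 11.5 and lay below Malat1 (47.0 ± 17.1), and Snhg12 (15.3 ± 7.75) lay below Mir155hg (22.6 ± 13.1, SD, n = 4 each). Mir155hg, which in the controls lay below Snhg12 and Mir22hg without overlap, overlapped both after ox-LDL, on a scale that used a shorter length for it there.

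Other long noncoding RNAs of macrophages gave a background for these values. Of 11 tested, 3 were called higher and 1 lower (beside 9.4% and 5.35% of all genes), with a median log2 fold change of 0.16. Of those called higher, Mirt2 and Ptgs2os2 were too low in the controls for a fall to be called. When 10 or more counts were required in every library, 8 were tested, of which 1 was called higher and 1 lower. Mirt2, an LPS-inducible RNA, never exceeded 2 counts in a control library, and its summed counts were 3 and 413 (ratio 159, exact 95% interval 54.1 to 775 for counting error only). Without ox-LDL replicate 5, which held most of these counts, the ox-LDL sum was 138 and the ratio 64.8 (interval 21.7 to 318). Ptgs2os2, named as an opposite-strand RNA of the cyclooxygenase gene Ptgs2, had summed counts of 6 and 456 (ratio 87.9, interval 40.1 to 241), and without strand its reads cannot be told apart from those of an overlapping gene. Morrbid, which controls survival of short-lived myeloid cells, rose from 1.93 ± 0.671 to 18.5 ± 11.7 CPM (log2 fold change 3.26, adjusted p = 0.00015). Peg13, an imprinted RNA, fell by 1.64 on the log2 scale, from 10.2 ± 1.23 to 3.25 ± 1.30 CPM. Tug1 and Norad, abundant RNAs at 39.4 ± 4.13 and 113 ± 12.4 CPM in the controls, had log2 fold changes of 0.15 and -0.39 and were not called.

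**Figure D5:**
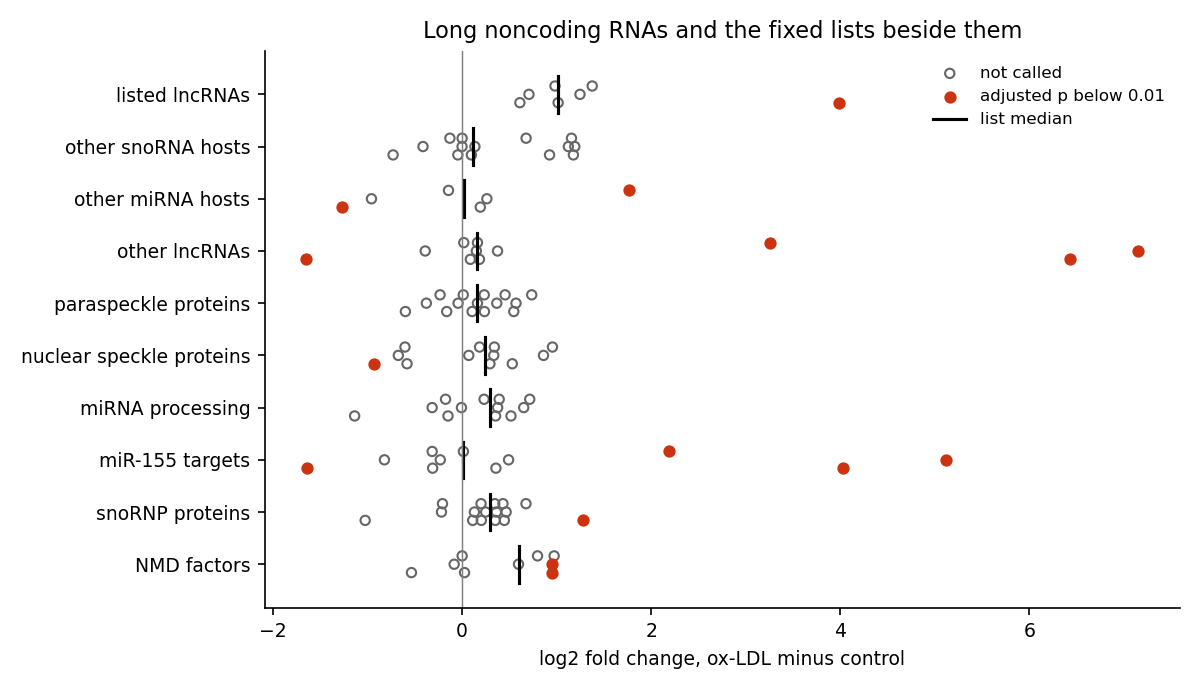
log2 fold change, ox-LDL minus control, of each tested gene of the long noncoding RNAs examined here and of the other lists, with genes called at an adjusted p below 0.01 in red and the list median as a black bar. Mir155hg is the one called gene of the top row, and the called genes of the other rows lie on both sides of 0.

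The genes whose pattern over the 10 libraries was most like that of each RNA were found by Pearson correlation of log2(CPM + 1), among genes with a mean of at least 10 CPM. For Mir155hg they were H2-M2, Filip1l and Rab3ip (r = 0.98 each). For Neat1 they were Helz2 (0.98), Got1 (0.95) and Tmbim6 (0.95), and for Malat1 they were Trib3 (0.97), Mthfd2 (0.94) and Sesn2 (0.94). Mir22hg had the lowest values, with Gm14325 (0.92), Lilrb4a (0.90) and Lztfl1 (0.90). Gas5 was most like Mrpl13, Pla2g12a and Rtca (0.98 each), Snhg1 like Snhg6, Ift22 and Chchd6 (0.98 each), and Snhg12 like Nt5m (0.98), Arfip2 (0.97) and Gng11 (0.97). The 10 libraries share their group difference and their length trend. When group means were taken off, 3 of these 21 genes stayed among the top 3 of their RNA, and 2 did when the length trend was removed.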

How the data were processed

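RNA-seq of 5 control and 5 ox-LDL libraries was analysed from the deposited tables. Per the labels and the methods, the authors used HISAT2 (2.0.5) for alignment to mm9, then SAMtools (1.4) and StringTie (given as 1.3.3.13). The deposited estimated counts held 13.6% of values that were not whole numbers. The authors also deposited an unnamed value per gene and library that was taken as FPKM, since counts divided by it and by the library total gave a transcript length that varied by at most 1.1-fold in 63.2% of genes. The counting step and its use of strand are not given in the sources used here. Estimated counts were rounded, 9788 circular RNA rows were left out, and low genes were removed with filterByExpr. TMM normalization, edgeR's quasi-likelihood test (version 4.0.16, robust, R 4.3.3) and Benjamini-Hochberg adjustment over 12654 genes followed, with calls at an adjusted p below 0.01. Exact two-sided permutation tests of single values ran over 252 arrangements. Alternatives used DESeq2 (1.42.0), limma (3.58.1), other scalings and filters, a loess trend on gene length and libraries left out. Methods were tested on simulated data. Within groups, all pairs of libraries differed by more than sampling noise. P-values measure the spread between these libraries.

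The members and lists were chosen with earlier results of these data known. Named were all 8 members, up to 4 genes called per direction with the largest changes in each list, and the 3 tested genes most correlated with each member. Bach1, Tug1, Norad, Slc3a2 and the examples of uncalled genes fall outside this rule and were named after their values were seen. Some genes that this rule or the checks of shared reads would name are not reported here. Gene symbols, miRNAs and promoters came from RefSeq (GRCm38.p6), where 7 of the 8 members had a promoter window and Neat1 had none, and mm9 coordinates from GENCODE.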

Additional observations from a re-analysis of the deposited data

Results flagged for a closer look

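Among the ox-LDL and control values of the 8 long noncoding RNAs, 29 groups of 5 libraries (CPM and implied lengths) were examined for a library far from the others, of which chance alone would mark 1 in 20 (1.45). There were 3, all of them ox-LDL replicate 2 in CPM. For Gas5 this library had 180 CPM beside 31.5 to 43.8 in the other 4, a gap of 0.917 of the range. For Snhg1 it had 107 CPM beside 8.18 to 15.7, a gap of 0.924. For Snhg12 it had 35.9 CPM beside 3.23 to 10.0, a gap of 0.791. The limit for 5 libraries is 0.71. The same library had the lowest TMM factor (0.593) and a correlation of -0.66 (Spearman, across genes) between its deviations and gene length, beside -0.60 to 0.54 in the other 9. The part of either in these 3 values was not tested.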

How the results depend on the processing

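Mir155hg was called under every alternative run, with a log2 fold change between 3.68 (limma on log2(FPKM + 1)) and 5.03 (FPKM + 0.1). Leaving out single libraries gave 3.77 to 4.18 for Mir155hg, 0.87 to 1.10 for Neat1, 0.89 to 1.19 for Malat1, 0.46 to 0.70 for Mir22hg, -0.14 to 0.92 for Gas5, 0.02 to 1.67 for Snhg1 and 0.35 to 1.53 for Snhg12. It gave 826 to 1755 genes called higher and 436 to 1502 lower, beside 1189 and 677, with the highest counts without ox-LDL replicate 2. Neat1 passed the threshold without that library (0.97, adjusted p = 0.0069), without it and control replicate 5 together (1.05), with the length trend removed (0.99), with limma-voom (1.00), with DESeq2 (0.98) and, as did Malat1, with both rows summed (1.00). Malat1 also passed with DESeq2 (1.00) and without ox-LDL replicate 5 (1.17), and Snhg12 with the length trend removed (1.14). At an adjusted p below 0.05, Neat1 (0.98) and Malat1 (1.02) passed, and 2045 genes were called higher and 1320 lower. Without control replicate 5 and ox-LDL replicate 2, Gas5 was -0.25 and Snhg1 -0.083, and 1843 genes were called higher and 1483 lower. Genes called higher were 704 with library size alone, 555 on log2(FPKM + 1) and 543 on log2(FPKM + 0.1). Genes called lower were 1225 with the length trend removed and 1244 with DESeq2, which gave no adjusted p for Snhg1. Of the member values under alternatives, 156 kept their direction and their side of the threshold, 12 newly passed it and 3 changed sign. Over all alternatives, the genes called higher, those called lower and the median log2 fold change ranged over 0 to 2, 0 to 1 and -0.27 to 0.61 for other snoRNA hosts, 0 to 1, 0 to 1 and -0.25 to 0.22 for other miRNA hosts, 1 to 4, 1 to 2 and -0.08 to 0.29 for other long noncoding RNAs, 0 to 1, 0 to 1 and -0.06 to 0.25 for paraspeckle proteins, 0 to 2, 0 to 3 and -0.02 to 0.30 for nuclear speckle proteins, 0 to 1, 0 to 2 and 0.04 to 0.43 for miRNA processing genes, 1 to 4, 1 to 2 and -0.28 to 0.38 for miR-155 targets, 0 to 1, 0 to 2 and -0.05 to 0.40 for snoRNP proteins, and 0 to 4, 0 to 1 and 0.24 to 0.88 for decay factors. The causes were not tested.

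Deviations of same-numbered libraries correlated at -0.42 to 0.51, so no steady pairing by replicate number was seen. The deviations also hold the length trend of each library, so this cannot show whether same-numbered libraries were paired. With the replicate block, Neat1 was 0.99 (adjusted p = 0.024), Malat1 1.01, Mir155hg 3.90, Mir22hg 0.64, Gas5 0.36, Snhg1 0.58 and Snhg12 0.77, with no change of call, and 885 genes were called higher and 549 lower. Of the 10 libraries, 3 correlated best with their own number in the other group. Depth limits Meg3, with 18 control counts in all.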
